A study of Homo sapiens with 3 samples.

Results

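The clustered histone genes were examined in HT29 cells, a human colon cancer cell line, grown on 3 substrates. TCP was tissue culture polystyrene, the ordinary plate (the samples' label is 2D), CS was a chitosan membrane, and CSHA was a chitosan membrane grafted with hyaluronan (HA). All 3 conditions used the same unmodified line with no drug, and each was hybridised to 1 single-colour Agilent array, so the spread between cultures was not measured and no test could be run. The genes were chosen by name: every probe whose gene has an older symbol beginning with HIST1H, HIST2H, HIST3H or HIST4H, or the matching current symbol in the H1-1 to H1-6, H2AC, H2BC, H3C or H4C series. This gave 69 genes with 79 probes, out of 21610 genes and 50568 probes on the array. They comprised 6 H1, 17 H2A, 19 H2B, 13 H3 and 14 H4 genes, of which 56 lie at the HIST1 locus, 9 at HIST2, 3 at HIST3 and 1 at HIST4. The reference gene table held 24 more names of the same series without a matched probe, 5 of them protein coding (H2AC18, H2BC12L, H3-7, H3C14 and H4C14).

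Histones package DNA into nucleosomes, in which the core histones H2A, H2B, H3 and H4 form the spool and the linker histone H1 sits where DNA enters and leaves. The clustered genes supply histones while DNA is being copied, and their transcription in S phase depends on the coactivator NPAT. Their mRNAs usually end in a stem-loop bound by SLBP in place of a poly(A) tail. Variant histone genes outside the clusters mostly make polyadenylated mRNA that is not confined to S phase. The labels name a Low Input Quick Amp kit, which copies RNA from poly(A) tails, so the signal of a clustered histone gene comes from the RNA that this priming reached. Genes of the same histone type resemble each other in sequence, and the files hold no probe sequences. How far a probe also detected sister genes was not tested.

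The promoters of these genes carry known short motifs by core type, and 6 are printed because they belong to genes the comparisons turn on: H2BC6, H4C5, H1-5 and H3C8, which were among the lowest on CSHA, H3C1, which was the highest, and H2BC12, whose probes disagreed. Each is the 150 bases before the annotated start, 5′ to 3′ on the gene's own strand, from RefSeq on GRCh38.p14. The windows are chr6:26183611-26183760 on the plus strand for H2BC6, chr6:27146859-27147008 on the minus strand for H2BC12, chr6:26204460-26204609 on the plus strand for H4C5, chr6:27867589-27867738 on the minus strand for H1-5, chr6:26271414-26271563 on the minus strand for H3C8 and chr6:26020301-26020450 on the plus strand for H3C1. Capitals mark the octamer ATTTGCAT, the CCAAT box, the letters TATAAA and the H1 box AAACACA, each searched on both strands, so that a CCAAT box on the other strand reads ATTGG.
H2BC6: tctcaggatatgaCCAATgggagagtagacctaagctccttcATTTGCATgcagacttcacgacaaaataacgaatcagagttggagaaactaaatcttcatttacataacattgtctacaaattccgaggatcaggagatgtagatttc
H2BC12: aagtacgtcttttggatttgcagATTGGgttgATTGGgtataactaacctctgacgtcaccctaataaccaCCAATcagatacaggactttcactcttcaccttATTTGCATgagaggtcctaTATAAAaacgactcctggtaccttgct
H4C5: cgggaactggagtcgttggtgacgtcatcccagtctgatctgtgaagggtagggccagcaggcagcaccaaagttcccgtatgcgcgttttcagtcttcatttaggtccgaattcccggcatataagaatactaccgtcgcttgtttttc
H1-5: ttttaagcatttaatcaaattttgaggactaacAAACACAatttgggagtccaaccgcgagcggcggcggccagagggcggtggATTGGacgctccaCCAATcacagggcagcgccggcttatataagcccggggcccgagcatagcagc
H3C8: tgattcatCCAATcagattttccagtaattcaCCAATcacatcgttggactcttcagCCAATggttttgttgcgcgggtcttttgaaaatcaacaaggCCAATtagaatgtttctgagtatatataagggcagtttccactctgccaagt
H3C1: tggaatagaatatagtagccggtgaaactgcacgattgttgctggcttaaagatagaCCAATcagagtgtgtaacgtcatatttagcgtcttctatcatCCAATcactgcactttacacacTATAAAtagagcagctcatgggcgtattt

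A promoter sequence was available for 62 of the 69 genes, and the 250 bases before the start were searched in each. The octamer, the sequence known from H2B promoters, was present in 14 of 18 H2B and 11 of 15 H2A promoters, in 1 of 11 H3 promoters and in none of the 6 H1 or 12 H4 promoters. Over all 35116 promoters searched in the same way it was present in 1.63%. The H1 box was found in 6 of 6 H1 promoters and in no other clustered histone promoter, against 4.82% of all promoters. A CCAAT box was found in all the H1, H2A, H2B and H3 promoters and in 3 of 12 H4 promoters, with 32.0% over all promoters. The letters TATAAA occurred in 41 of these 62 promoters, against 3763 of all the promoters searched. A match describes the letters only and is not a measured binding site. The octamer regions of H2A and H2B promoters are in part the same DNA, because many of these genes lie head to head.

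All 8 colon epithelial markers were well above background on every array, EPCAM, CDH1, VIL1 and CDX2 among them. Of 7 stromal markers, SPARC and VIM alone passed, on TCP only and near the detection limit, while COL1A1, COL1A2, COL3A1, DCN and LUM were not well above background on any array. Of the 4 immune markers on the array, 4, 3 and 4 passed on TCP, CS and CSHA, and the summed level of the list was 2.79, 3.04 and 3.53 on the log2 scale. Between CSHA and TCP, CD14 was at a log2 difference of 1.04, CD79A at 0.66, PTPRC at 0.05 and CD3E at -1.76. The part of these markers in the histone values was not tested. The signal at the 75th percentile was 354, 423 and 337 for TCP, CS and CSHA, and 48.6% to 51.1% of probes were well above background.

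Levels are given as log2 signal minus the array's 75th percentile, and a difference between arrays is the difference of these levels. A level is not the amount of RNA, since probes differ in how well they hybridise, so genes are not compared by it. Well above background were 64 of the 69 genes on the TCP array, 63 on the CS array and 62 on the CSHA array, and 62 were so on all 3. The testis genes H1-6 and H2BC1, the gene H4C7 and the pseudogenes H2AC2P and H2BP1 were not well above background on any array. None of the spots of the 79 probes was flagged or saturated. Probes spotted 10 times per array gave a median SD of a difference of 0.08 between CSHA and TCP, and the scanner software's own error model gave a median of 0.20 for the difference of a histone gene. Both describe the measurement within an array and not the difference between cultures.

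**Figure D1:**
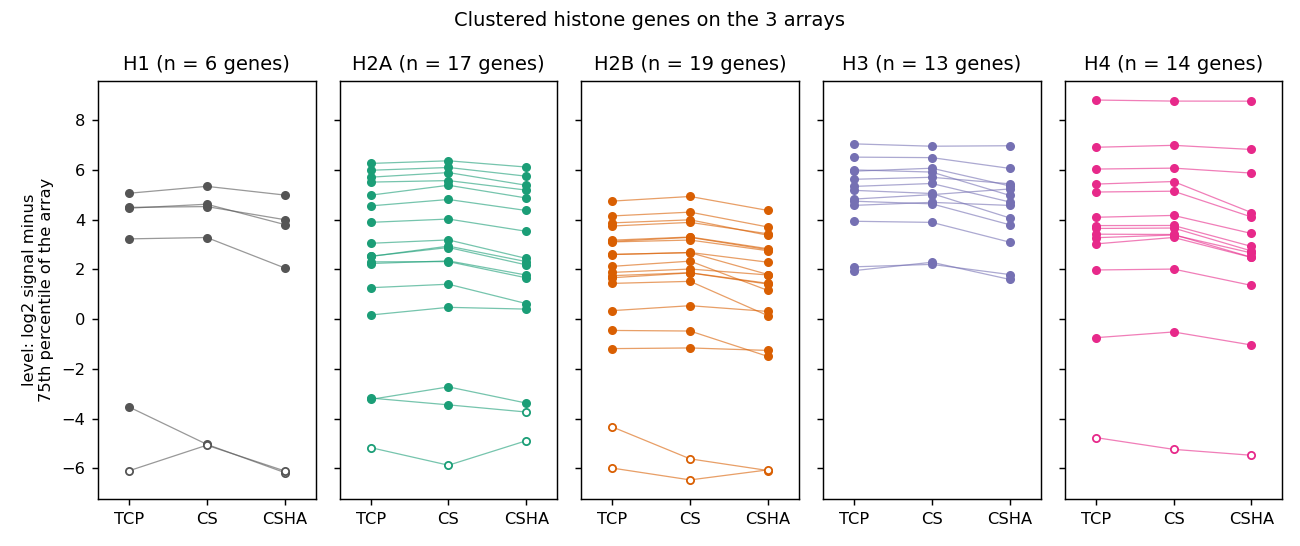
Level (log2 signal minus the 75th percentile of the array, vertical axis) of each clustered histone gene on TCP, CS and CSHA, in 1 panel per core type; each line joins the 3 arrays of 1 gene, filled points are well above background and open points are not. Most lines are flat or rise slightly from TCP to CS and step down to CSHA, with H4C3 at 8.81, 8.77 and 8.77 among the flat ones.

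On CSHA the clustered histone genes were lower than on TCP almost throughout. Of 64 genes with a value, 62 were lower and 2 were higher, with a median difference of -0.36 beside 0.12 over all 14624 genes compared, of which 38.4% were lower. H1-1 and H2AC1 were well above background on TCP and not on CSHA, so their differences are lower bounds and their direction followed from the filter. Among the 62 genes measured on both arrays, 60 were lower and the median was -0.36. H2BC12, whose probes disagreed, is counted by its brighter probe in all these counts. A difference of at least 2-fold downward was reached by 7 of the 64, or 10.9%, beside 3.99% of all genes, and no histone gene was 2-fold higher, beside 3.02% of all genes. Among the 3607 genes of any kind with a mean level of at least 3, 1.66% were 2-fold lower and 34.7% were lower by any size. In bulk RNA, fewer cells making a transcript and less of it per cell cannot be told apart.

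The direction depended on how the arrays were scaled. With the arrays set to 7 spike-in probes in place of the 75th percentile, the median over all genes moved from 0.12 to 0.57. That of the histone genes moved from -0.36 to 0.08, with 30 of 63 lower and none 2-fold lower or higher. Over all genes with that scaling, 15.6% were lower, 1.21% were 2-fold lower and 12.5% were 2-fold higher. Both scalings move every gene of an array by the same amount. The place of the histone genes relative to all genes was thus fixed in advance, apart from genes with bounds, and is no check on the scaling. Their median minus that of all genes was -0.49 under both, and 62 of 64 and 61 of 63 of them lay below the median of all genes. The differences below are those under the 75th percentile, to be read against 0.12 for all genes.

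Among the H2B genes, which pair with H2A in the nucleosome, H2BC6 had the largest difference. It gave signals of 961 for TCP, 1214 for CS and 372 for CSHA. It was 2.46-fold lower on CSHA than on TCP, a log2 difference of -1.30, and was close to TCP on CS at 0.08. H2BC26 of the HIST3 locus had signals of 259, 304 and 120 on TCP, CS and CSHA, with -1.05 on CSHA, which was -0.76 with normexp correction and -0.80 with the deposited values. H2BC7, just outside the 2-fold threshold, had 1545, 2132 and 752, with -0.97. All 17 H2B genes with a value, H2BC12 by its brighter probe only, were lower on CSHA than on TCP, from H2BC6 to H2BC15 at -0.03, with a median of -0.34. H2BC13, the brightest probe of this type, had 9518, 12925 and 6988, a difference of -0.38.

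Among the H4 genes, which form the central tetramer with H3, H4C5 gave 15288 on TCP, 19606 on CS and 6599 on CSHA, or 2.21-fold lower on CSHA, and H4C12 gave 12253, 14977 and 5838, or 2.00-fold lower, on the threshold itself. All 13 H4 genes with a value were lower, with a median of -0.62, the lowest of the core types. H4C3 stood apart from them with 159119 on TCP, 184444 on CS and 146927 on CSHA, a difference of -0.05. H4C13 at -0.09 and H4C2 at -0.16 were the next closest to TCP.

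The H3 genes spread the most. H3C8 gave 12836 on TCP, 14048 on CS and 5679 on CSHA, or 2.15-fold lower on CSHA. H3C4 gave 22712, 25518 and 10638, or 2.03-fold lower, and H3C7 gave 9485, 10528 and 4695, at -0.95. These 3 were also slightly below TCP on CS. At the other end, H3C1 gave 10069 on TCP, 13610 on CS and 12718 on CSHA, which is 0.18 above TCP on CS and 0.41 above it on CSHA, the largest upward difference of any clustered histone gene on CSHA. H3C6 was level between TCP and CSHA, at 4.58 and 4.57. H3-4, the testis H3 gene, gave 46899, 52441 and 42430, at -0.08 on CSHA, and whether its probe read the testis gene or the many H3 sister genes was not tested. The median of the 13 H3 genes was -0.45, with 12 lower.

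The H2A genes had the median closest to 0, -0.32, with 15 of 16 lower. Of the 15 measured on both arrays, 14 were lower and none was 2-fold lower. The lowest was H2AC6 with 1751 on TCP, 2104 on CS and 1069 on CSHA, a difference of -0.64. H2AC14, whose probe was the brightest of this type, gave 27192, 34935 and 23440, at -0.14. H2AC19 was the exception, with 398 on TCP, 589 on CS and 447 on CSHA, at 0.24, and its near-identical sister H2AC18 had no probe. H2AC1, a testis gene, was well above background on TCP and CS with signals of 39.3 and 38.9 and not on CSHA at 25.4, which gives at least 1.47-fold lower. The log2 bound of -0.56 shrank to -0.11 with normexp correction and to -0.12 with spike-in scaling.

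All 4 linker histone genes measured on both arrays were lower, with a median of -0.57. H1-5 gave 3321 on TCP, 4120 on CS and 1410 on CSHA, or 2.24-fold lower on CSHA than on TCP. H1-3 and H1-4 followed at -0.66 and -0.49. H1-2, a gene that also makes polyadenylated mRNA, gave 11845, 17143 and 10741, at -0.07. H1-1 was well above background on TCP only, with a signal of 30.7 against 12.9 on CS and 4.70 on CSHA. This gave at least 1.74-fold lower on CS and at least 1.29-fold lower on CSHA. With spike-in scaling H1-1 had no bound on CSHA, where 63 genes had a value in place of 64.

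**Figure D2:**
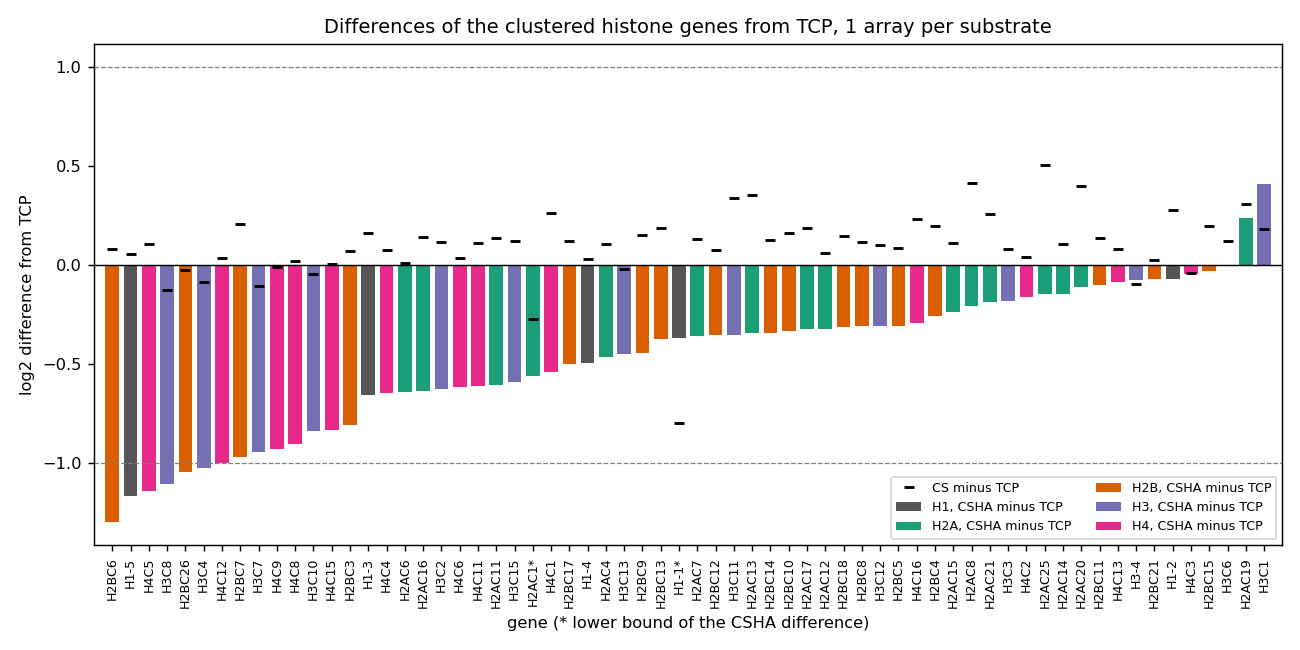
Log2 difference from TCP of the 64 clustered histone genes with a value; bars give CSHA minus TCP, coloured by core type and sorted, black marks give CS minus TCP of the same gene, dashed lines mark 2-fold and asterisks mark bounds. The bars run from -1.30 at H2BC6 to 0.41 at H3C1, while nearly all black marks lie above their bars.

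On CS the same genes were close to TCP. Of 64 with a value, 53 were higher and 11 lower, none of the 63 measured on both arrays was 2-fold apart in either direction, and the median was 0.11 beside 0.04 over all 14462 genes compared. Over all genes 56.7% were higher, 1.36% were 2-fold higher and 1.94% were 2-fold lower. H2AC25 of the HIST3 locus stood the farthest above TCP at 0.50, from a dim signal of 37.9 on TCP to 64.1 on CS, and 32.6 on CSHA. This value was 0.10 with the deposited values and 0.12 with normexp background correction, where H2AC8 and H2AC20 lay above it. H2AC25 was followed by H2AC8 at 0.42, with signals of 2035, 3241 and 1680 on TCP, CS and CSHA, and H2AC20 at 0.40, with 11230, 17671 and 9893. The lowest genes measured on both arrays were H2AC1 at -0.27, H3C8 at -0.13 and H3C7 at -0.11. By core type the medians on CS were 0.06 for H1 with H1-1 as a bound (0.11 over the 4 measured on both arrays), 0.14 for H2A, 0.13 for H2B, 0.08 for H3 and 0.04 for H4, and H3 was the most evenly divided, with 7 higher and 6 lower. Most of these differences were small beside the scanner's error. Of the 63 genes measured on both arrays, 52 differed by less than the model's error for that gene's difference, with no multiple of it taken. For CSHA and TCP this held for 14 of 62. The same share over all genes was not computed.

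CSHA was lower than CS as well, and the 2 comparisons with CSHA share that array. Of 63 genes with a value, 61 were lower on CSHA than on CS, with a median of -0.56 beside 0.07 over all 14597 genes, of which 41.5% were lower. H2AC1 entered these counts as a bound whose direction followed from the filter. Among the 62 genes measured on both arrays, 60 were lower and the median was -0.57. At least 2-fold lower were 6 genes, or 9.52%, beside 2.15% of all genes: H2BC6 at -1.38, H4C5 at -1.25, H1-5 at -1.22, H2BC7 at -1.18, H4C12 at -1.03 and H2BC26 at -1.02. The 2 genes that were higher were H3C1 at 0.23 and H3-4 at 0.02, and none was 2-fold higher, beside 2.27% of all genes. The medians were -0.67 for H1, -0.51 for H2A, -0.47 for H2B, -0.69 for H3 and -0.72 for H4. With spike-in scaling the median was -0.18, against 0.46 for all genes. There 47 of 62 were lower, beside 13.2% of all genes, and none was 2-fold lower, beside 0.80%.

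The HIST1 genes on chromosome 6 fall into 4 neighbourhoods parted by gaps of more than 200 kb, a division made after the values had been seen. The first, from H2AC1 to H2AC2P, had a single value, the bound of H2AC1. In the largest, from H1-1 to H4C8, 29 of 30 genes with a value, H1-1 as a bound, were lower on CSHA than on TCP, with a median of -0.48 and 4 at least 2-fold lower. The 5 genes from H2BC11 to H2AC12, H2BC12 by its brighter probe, ran from -0.93 to -0.10, and their median of -0.35 was that of H2BC12 itself. From H2BC13 to H2BC17, 16 of 16 were lower with a median of -0.35, and 2 were at least 2-fold lower. Neighbours could differ: H4C5, at -1.14, lies next to H2BC8 at -0.31, and H3C8, at -1.11, next to H2BC10 at -0.34. By locus, the median was -0.41 for HIST1, -0.25 for the 8 HIST2 genes with a value, -0.15 for the 3 HIST3 genes and -0.29 for H4C16, the HIST4 gene.

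**Figure D3:**
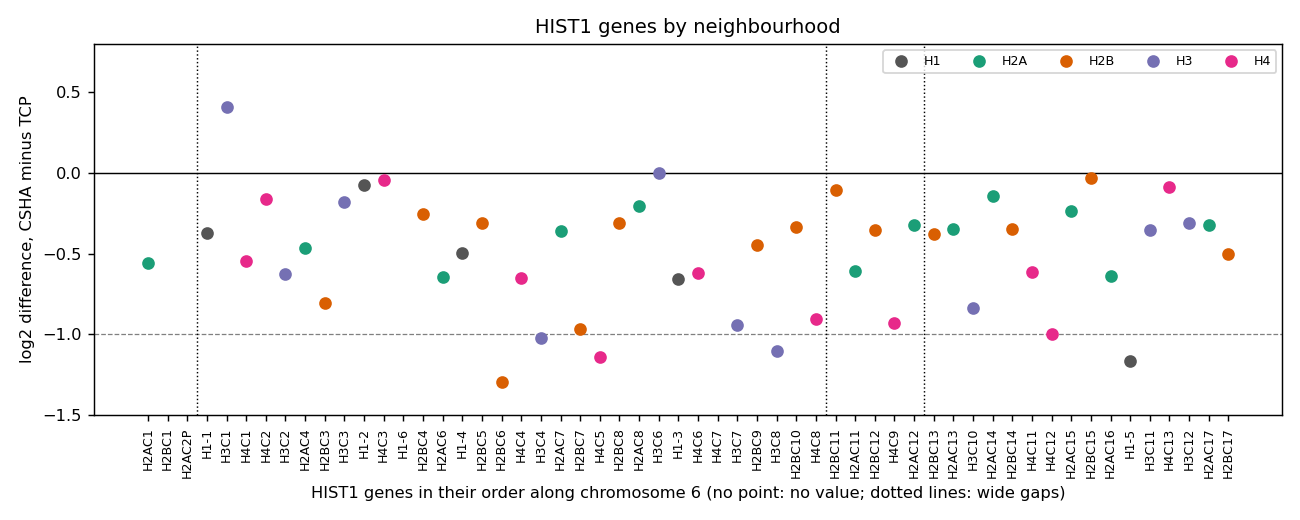
Log2 difference between CSHA and TCP (vertical axis) of the HIST1 genes in their order along chromosome 6 (horizontal axis, 1 position per gene); colours mark the core type, dotted lines mark wide gaps and the dashed line marks 2-fold lower. Neighbouring points can lie far apart, as for H2BC6 at -1.30 and H2BC5 at -0.31, or close, as for H2BC7 at -0.97 and H4C5 at -1.14.

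Head-to-head pairs share the DNA between their starts, and 11 H2A and H2B pairs had starts at most 300 bases apart. In the 10 with a value for both genes, the starts were 194 to 248 bases apart and the differences of the 2 genes between CSHA and TCP lay a median of 0.20 from each other. The closest were H2AC13 at -0.35 and H2BC13 at -0.38. The farthest were H2AC25 at -0.15 and H2BC26 at -1.05, followed by H2AC7 at -0.36 and H2BC7 at -0.97. Genes with an octamer in the promoter, nearly all of them H2A or H2B genes, had a median of -0.35, and those without it -0.47. The 8 genes with a value and no CCAAT box, which were H4 genes, had a median of -0.74, against -0.36 for those with one. In these pooled medians motif and core type cannot be told apart. Promoters with and without the octamer occur within H2A and within H2B, and promoters with and without a CCAAT box within H4. Such genes were not compared within a core type.

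Genes known to make polyadenylated transcripts besides the stem-loop form include H1-2, H2AC6, H2BC4, H2BC5, H2BC12 and H2BC21, a list from general knowledge that may be incomplete. Whether the other clustered genes made such transcripts in these cells was not tested. On CSHA 6 of 6 were lower than on TCP, H2BC12 by its brighter probe only, with a median of -0.28 beside -0.41 for the other clustered genes. H2AC6 was the lowest of them at -0.64 and H1-2 and H2BC21 were the closest to TCP, both at -0.07. On CS 6 of 6 were higher, with a median of 0.08 beside 0.11 for the others. Split by mean probe signal, which orders probes and not amounts of RNA, into 3 groups, the medians on CSHA against TCP were -0.31 for the dimmest 21 genes, -0.54 for the middle 21 and -0.28 for the brightest 20. Across 62 genes, probe level and difference had a Pearson correlation of 0.08 and a Spearman correlation of 0.11, a description over genes that share the same 3 arrays.

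More than 1 probe measured 10 of the genes, and 9 had a value for both probes. Of the 73 probes with a value on CSHA against TCP, 70 were lower and 3 higher. The 2 probes of a gene lay a median of 0.21 apart. H2BC12 was the case in which the direction differed: its brighter probe gave 3051 on TCP, 3837 on CS and 2275 on CSHA, at -0.35, while the other gave 1414, 2312 and 2354, at 0.80 on CSHA and 0.45 on CS. With the mean of both probes H2BC12 was 0.22 above TCP on CSHA, so its direction depends on the probe. On CS the probes of H3C10 differed in sign, at -0.04 and 0.21, as did those of H2BC18, at 0.15 and -0.03. Both probes of each of these genes were lower on CSHA.

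**Figure D4:**
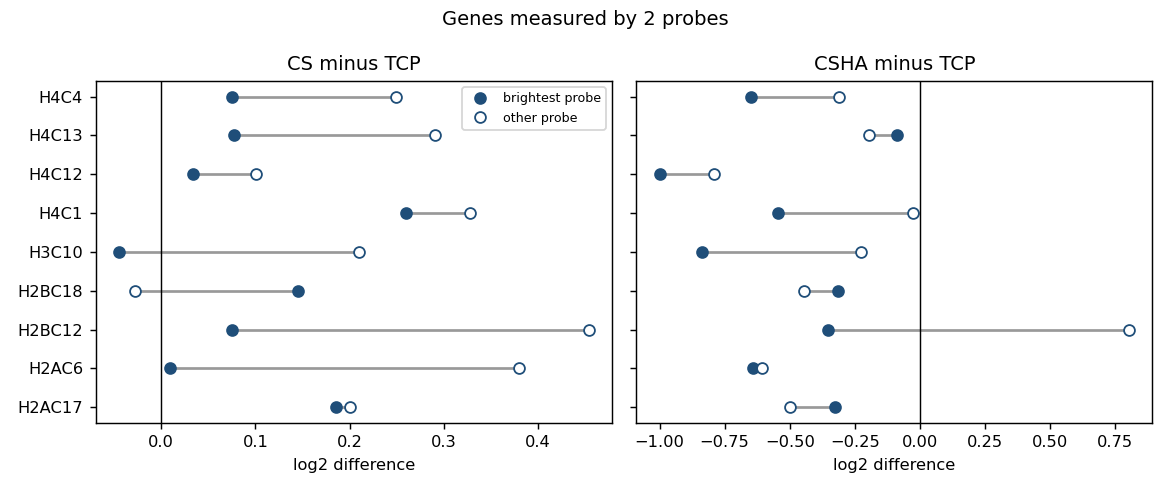
Log2 difference from TCP on CS (left) and on CSHA (right) for the 9 genes measured by 2 probes; filled points are the brighter probe and open points the other probe. On CSHA both points lie below 0 for all but H2BC12, whose points lie at -0.35 and 0.80.

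The variant histones, made outside the clusters, did not share the shift. Against TCP, the 10 with a value on CSHA divided into 6 higher and 4 lower, with a median of 0.10. H2AJ, a variant H2A, had the highest difference at 0.37, and H3-3B, which encodes the replacement histone H3.3, had the lowest at -0.64. The second H3.3 gene H3-3A was at 0.21. CENPA, the centromeric H3, was at -0.07. On CS the median of this list was 0.04, and no variant histone was 2-fold apart in any of the 3 comparisons.

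The factors that act on histone genes and their mRNAs were mixed. SLBP, which binds the stem-loop, gave 10572 on TCP, 12941 on CS and 11631 on CSHA, at 0.04 and 0.21. NPAT gave 192, 222 and 191, at -0.05 and 0.06. Against TCP, the 18 factors with a value on CSHA divided into 8 higher and 10 lower, with a median of -0.03. At least 2-fold lower were ZNF473, which works with the U7 particle in cutting the histone 3′ end, at -1.29 with signals of 234, 257 and 91.1, and LSM10, a core protein of that particle, at -1.10 with 3253, 3080 and 1450. Of the others, LSM11, the partner of LSM10, was at 0.08, CPSF3, the cutting enzyme, at 0.44 and the cap-binding protein gene NCBP1 at -0.54. On CS this list had a median of -0.02, from LSM10 at -0.33 to CPSF3 at 0.18, and no member was 2-fold apart.

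Histone chaperones, which carry histones to DNA, had a median of 0.05 on CSHA against TCP, with 11 higher and 9 lower, from ATRX at 0.53 to IPO4, an importin for histones, at -0.83. On CS the median was -0.11, from RBBP7 at 0.20 to TONSL at -0.41. The S phase genes as a list had 17 higher and 18 lower on CSHA, with a median of -0.04. MCM2 at -1.44, FEN1 at -1.12, RFC2 at -1.10 and MCM5 at -1.01 were at least 2-fold lower, all with roles in copying DNA. These 4 of 35 are 11.4% of the list and the 2 histone mRNA factors 11.1% of theirs, beside 10.9% of the clustered histone genes and 3.99% of all genes. PCNA at 0.10 and MCM7 at 0.04 were near TCP and DTL was the highest at 0.33. The G2/M genes had a median of -0.09, with 8 higher and 17 lower, PLK1 at -1.12 and CDC20 at -1.01 at least 2-fold lower and TTK the highest at 0.30. On CS the S phase median was -0.05 and the G2/M median -0.03, and no gene of these 2 lists was 2-fold apart. Against CS, MCM2 at -1.15 and ZNF473 at -1.17 were the 2 genes of the 5 lists that were 2-fold lower on CSHA.

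**Figure D5:**
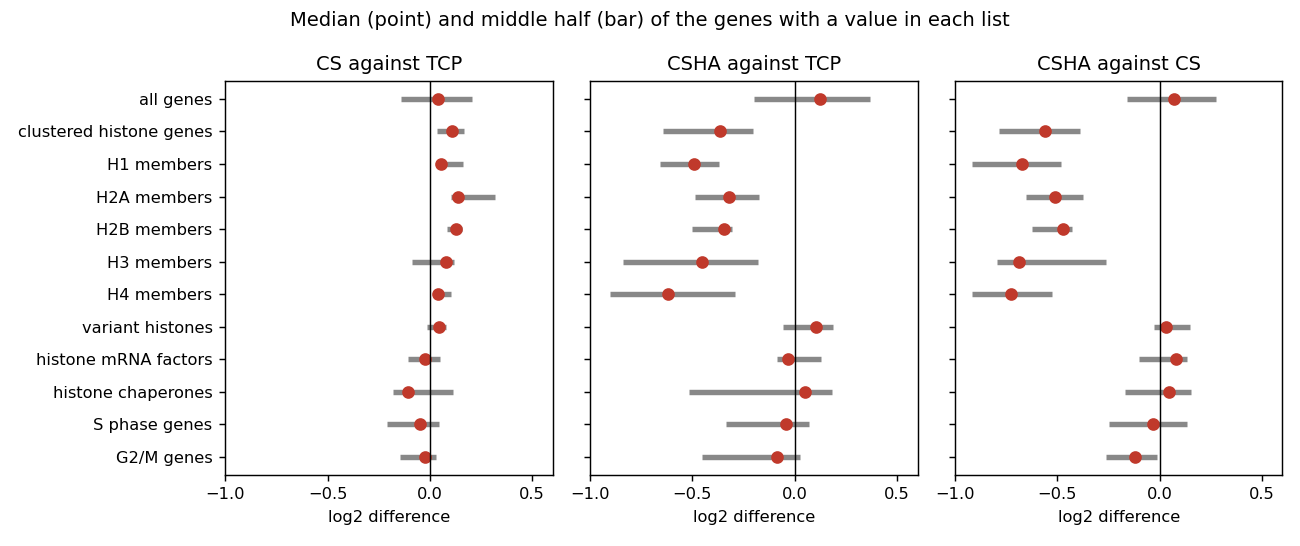
Median log2 difference (point) with the range from the lower to the upper quartile (bar) for all genes, the clustered histone genes, their core types and 5 related lists, in the 3 comparisons. On CSHA the clustered histone genes and each core type have medians from -0.62 to -0.32 against TCP, while the related lists lie between -0.09 and 0.10.

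Other RNAs that lack an ordinary poly(A) tail were looked at after the histone values had been seen. Small nucleolar RNAs, which guide the modification of ribosomal RNA, were lower on CSHA than on TCP for 170 of 215 with a value, with a median of -0.36, equal to that of the clustered histone genes to 2 decimals. On CS their median was -0.14, where that of the histone genes was 0.11. Small nuclear RNAs were lower on both membranes, with medians of -0.90 on CS and -0.65 on CSHA over 14 genes. RNA18SN5, the 18S ribosomal RNA, was at -2.36 on CSHA and -0.51 on CS, RNA28SN5, the 28S ribosomal RNA, at 0.21 and -0.24, and RNA5-8SN5, the 5.8S ribosomal RNA, at -0.90 and 0.09. Whether priming of RNA without a poly(A) tail differed between the arrays was not tested.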

How the data were processed

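Total RNA of HT29 cells from TCP, CS and CSHA was hybridised to 1 single-colour array each on a shared slide. Per spot, the deposited intensity came from Agilent Feature Extraction (version 10.7.3.1 per the file headers), already corrected for background, and a table of log2 values. The deposited log2 values equal the log2 median signal plus a constant per array, centred per spot, and the submitters' notes name limma without a version. They served as an alternative.

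Here the signal was raised to a floor of 1, log2 transformed and shifted by the 75th percentile of the array, with controls and spots flagged as outliers removed and repeated spots averaged. Accessions gave symbols through RefSeq genes (GRCh38.p14), 29989 of 50568 probes matched, and the brightest probe stood for a gene. Comparisons took genes that exceeded background clearly on either array, and gave a bound if only 1 array measured the gene. Genes were counted at 2-fold, without a test, since there was 1 array per condition.

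Genes were named by rule: the brightest of each core type, those at least 2-fold apart, the 3 largest differences each way in each comparison, and those whose probes disagree, with the extremes of the related lists. The histone genes and lists were chosen with earlier results of these data known, and the other RNA classes and HIST1 neighbourhoods after the values were seen. Background correction, normalization, scaling, probe choice, filter, threshold and the deposited values were varied with limma 3.58.1 (R 4.3.3), pandas 2.3.3 and numpy 2.4.6. The code was tested on simulated data.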

Additional observations from a re-analysis of the deposited data

How the results depend on the processing

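Under normexp correction, quantile normalization, the median of detected probes, the mean over probes, the strictest filter and the deposited values, the medians of the clustered histone genes kept their direction. At least 2-fold lower on CSHA against TCP were 5 to 8 genes under these settings, beside 2.00% to 4.47% of all genes. The count was 5 with normexp or the deposited values, where H2BC26 (-0.76 and -0.80) and H4C12 (-0.95 and -0.95) lost the call. Against CS, H2BC26 lost it too (-0.71 and -0.72). H4C12 also lost it with the mean over probes (-0.90, and -0.96 against CS) and with the median of detected probes (-0.99, against TCP). The exceptions came from spike-in scaling, the detected-probe percentile, the absence of a filter and other thresholds. With spike-in scaling, which moves all genes, the median on CSHA reversed to 0.0773 against TCP. There 30 of 63 were lower, beside 15.6% of all genes, and 0 at least 2-fold lower, beside 1.21%. Against CS the median was -0.184, with 47 of 62 lower, beside 13.2% of all genes, and 0 at least 2-fold lower, beside 0.80%. On CS spike-in scaling left 6 of 64 lower, beside 35.4% of all genes. The percentile over detected probes left 19 of 64 lower, beside 51.3%. With spike-in scaling 33 of 63 genes lay above TCP on CSHA, and 15 of 62 above CS. Among those it turned above TCP were H1-2 (0.36), H2AC14 (0.29), H2AC20 (0.32), H2AC25 (0.29), H2AC8 (0.23), H2BC12 (0.082), H2BC13 (0.060) and H2BC18 (0.12). Among those it turned above CS were H1-2 (0.033), H2AC14 (0.13), H2AC19 (0.31) and H3C6 (0.26). The mean over probes put H2BC12 at 0.22 above TCP on CSHA. Without a filter on dim probes, the median lay 0.159 above that of all genes on CS and -0.367 from it on CSHA against TCP. On CS 1 of 69 genes was then at least 2-fold higher and 2 were lower, beside 2.93% and 5.34% of all genes. The higher gene was H1-6, and the lower genes were H2BC1 and H1-1. H1-6 and H2BC1 were not well above background on any array, and H1-1 was so on TCP only. At 1.5-fold, 1 of 64 genes was lower on CS, beside 5.04% of all genes. That gene was H1-1, a bound whose direction followed from the filter. On CSHA 23 of 64 were lower than on TCP, beside 11.2%, and 30 of 63 lower than on CS, beside 7.33%. At 3-fold there were 0 on CSHA against TCP and 0 against CS, beside 0.875% and 0.541% of all genes. Genes near background carry only bounds. No paired analysis was possible because each condition had 1 array, and no replicate could be left out.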
